A study of Mus musculus with 36 samples.

Results

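Cholesterol and fatty acid synthesis were followed through 32 genes, chosen by name for their place in these pathways: 5 regulators, 15 enzymes of the sterol branch and 12 enzymes of the fatty acid branch. Of the 19057 genes with a probe on the array, 30 were members, measured by 56 probes. No probe was listed for Hmgcs1 and Fdft1, whose enzymes make HMG-CoA and squalene. A gene entered the tests if the brightest of its probes had a detection p-value under 0.05 in 5 or more of 30 tumours, and 28 members were among the 10907 genes that met this. Mvk, mevalonate kinase, was detected on 0 of 30 tumours and 2 of 6 cell arrays, and Acaca, the carboxylase that makes malonyl-CoA, on 0 of 36 arrays, so both were measured but not tested.

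Cells make cholesterol from acetyl-CoA by way of mevalonate and squalene, and fatty acids from the same acetyl-CoA by way of malonyl-CoA. When sterols in the endoplasmic reticulum are low, Scap carries the precursors of the SREBP transcription factors, encoded by Srebf1 and Srebf2, to the Golgi, where they are cut and released to switch on genes of both branches. Insig1 and Insig2 hold Scap back when sterols are plentiful. Tumours are known to draw on these pathways for membranes, and the supply of sterols, oxygen and serum lipids changes their output.

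The samples were tumours of Lewis lung carcinoma, a mouse lung tumour line, grown in male mice of 2 age classes, young and middle-aged, which received either no irradiation or 5 exposures of 0.2 Gy of 56Fe, a heavy ion found in space radiation. There were 10 tumours from young unirradiated, 8 from young irradiated, 7 from middle-aged unirradiated and 5 from middle-aged irradiated mice. The same line as cells was hybridised as a chip control, on 3 arrays in each of 2 control batches, and those 6 arrays were averaged to 1 sample because the labels give them as technical controls. The labels state no genotype, strain, age in weeks or chip for the tumours, so no chip effect among the tumours was tested. A tumour is a mixture of cancer and host cells, so that fewer cells of a type and less RNA per cell cannot be told apart.

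Levels below are log2 intensities after background correction and quantile normalisation, and a level is compared between samples for 1 probe, never between probes. Probes detected per tumour array lay between 17329 and 19843, except on young irradiated replicates 6 and 8, with 11860 and 14828, which were also the dimmest arrays. Cell arrays had 16420 to 18546. Of 13 adipocyte markers with a probe, 6 were detected on no tumour, among them Plin1, Cidec and Fabp4, and Adipoq was detected on 2 tumours, while Pnpla2 was detected on 30, Lpl on 29, Lipe and Lep on 7 and Car3 on 5. Markers of macrophages, endothelium and fibroblasts were present in the tumours. The mean of the skeletal muscle markers was above 7 in 7 of 30 tumours, up to 11.53, and the lowest tumour (5.36) lay within the range of the cells (5.31 to 5.47). Of the 56 member probes, 27 were detected on 30 of 30 tumours, 45 on 5 or more and 8 on no array.

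Most members were well expressed and differed little on average between the tumour groups, while single tumours of 1 group differed by as much as several-fold. Among the regulators, Srebf2, the SREBP that acts mainly on sterol genes, had a lowest, median and highest level of 8.86, 10.04 and 10.43 in young unirradiated tumours, 9.35, 9.88 and 10.39 in young irradiated and 9.73, 10.15 and 10.56 in middle-aged unirradiated tumours. In the middle-aged irradiated tumours it read 9.12, 9.83, 9.78, 9.73 and 9.98. All 4 groups overlapped, and the lowest value lay in a young unirradiated tumour. Srebf1, which acts mainly on fatty acid genes, ran from 5.33 through 6.81 to 7.52 in young unirradiated, from 6.15 through 6.74 to 7.04 in young irradiated and from 6.50 through 6.86 to 7.54 in middle-aged unirradiated tumours, and read 6.32, 7.04, 6.34, 6.76 and 6.40 in middle-aged irradiated ones. The groups overlapped, and young unirradiated tumours spanned a 4.56-fold range.

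Insig1, the retention protein that is itself an SREBP target, ran from 6.71 through 7.82 to 8.76 in young unirradiated, from 7.01 through 7.81 to 8.58 in young irradiated and from 7.56 through 8.22 to 8.58 in middle-aged unirradiated tumours. Middle-aged irradiated tumours read 7.82, 8.75, 8.00, 7.92 and 8.43, within the range of the young unirradiated tumours. Insig2, its relative, had a narrower range of 9.21 to 10.46 over the 30 tumours, and Scap of 8.81 to 9.88.

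In the sterol branch, Sqle, the epoxidase that oxidises squalene and needs oxygen, ran from 11.12 through 11.63 to 12.24 in young unirradiated, from 11.28 through 11.80 to 11.93 in young irradiated and from 11.30 through 12.12 to 12.29 in middle-aged unirradiated tumours. It read 11.38, 11.98, 11.47, 11.54 and 11.81 in the middle-aged irradiated tumours. The groups overlapped, and the highest and lowest of 30 tumours were 2.25-fold apart. Cyp51, the lanosterol demethylase downstream of it, ran from 8.96 through 9.51 to 10.19 in young unirradiated, from 8.49 through 9.68 to 10.00 in young irradiated and from 9.05 through 10.11 to 10.45 in middle-aged unirradiated tumours, and read 9.33, 9.91, 9.32, 9.27 and 9.78 in middle-aged irradiated ones. Its extremes were 3.90-fold apart, from young irradiated replicate 6, a dim array, to middle-aged unirradiated replicate 1, a bright array.

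Idi1, the isomerase that supplies the isoprenoid building blocks, was near the limit of detection, being detected in 6 of 10 young unirradiated, 4 of 8 young irradiated, 4 of 7 middle-aged unirradiated and 3 of 5 middle-aged irradiated tumours. It ran from 5.38 through 6.49 to 6.94 in young unirradiated, from 5.59 through 5.94 to 6.37 in young irradiated and from 5.27 through 5.60 to 6.17 in middle-aged unirradiated tumours, and read 5.25, 5.56, 5.83, 5.49 and 5.89 in middle-aged irradiated ones. Tm7sf2, a sterol reductase, was detected on 19 of 30 tumours. Mvd, Fdps, Lss, Hsd17b7 and Sc5d, which act from mevalonate diphosphate to the late sterols, were detected on all 30 tumours, and Pmvk, Nsdhl and Dhcr7 on 29.

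In the fatty acid branch, Scd1, the desaturase that makes oleate, ran from 10.43 through 11.23 to 11.68 in young unirradiated, from 11.04 through 11.31 to 11.54 in young irradiated and from 10.18 through 11.01 to 11.72 in middle-aged unirradiated tumours. Middle-aged irradiated tumours read 10.81, 11.29, 10.96, 11.09 and 11.37, inside the range of the middle-aged unirradiated ones. Fasn, the fatty acid synthase, was detected on 10 of 30 tumours and 4 of 6 cell arrays, with values from 4.60 to 6.32 over the tumours. It was detected on 3 young unirradiated, 2 young irradiated, 2 middle-aged unirradiated and 3 middle-aged irradiated tumours, so its single probe gives little beyond a bound in most samples. Acly, which splits citrate into acetyl-CoA, ran from 11.96 to 12.76, and Fads1, a desaturase of polyunsaturated fatty acids, from 12.11 to 12.73, the narrowest range of the tested members.

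**Figure D1:**
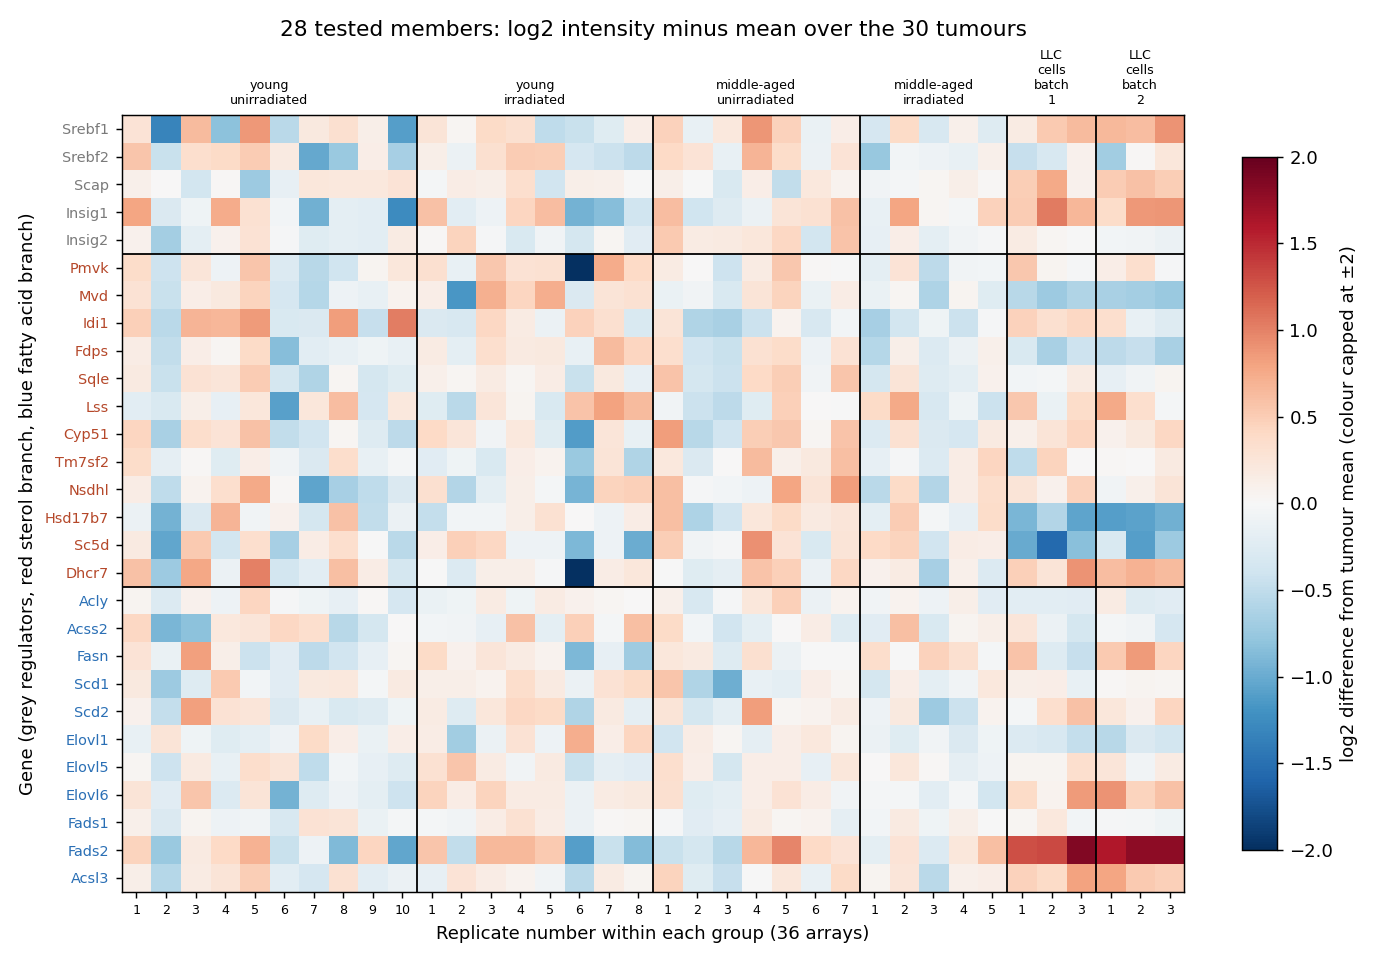
Log2 intensity of the 28 tested members on 36 arrays, as colour for the difference from each gene's mean over the 30 tumours, with genes in rows by branch and arrays in columns by group. The Fads2 row is darker red on the 6 cell arrays than on any tumour, while most other rows vary from tumour to tumour within the groups.

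The spread of the members between tumours was wide. The median standard deviation within groups was 0.38 for the 28 members and 0.32 for all genes tested, and 19 of 28 members lay above the latter. Fads2 (0.62), Insig1 (0.56) and Dhcr7 (0.55), the reductase of the last step to cholesterol, varied most, and Fads1 (0.16) and Acly (0.19) least. Over the 6 cell arrays the median was 0.22 for members and 0.19 for all genes, so both medians were lower there than over tumours. Of the 28 members 25 varied more between tumours than between cell arrays. This count was not taken over all genes, so it is not a trait shown for the members alone. The cell arrays are technical, so this compares tumours with repeat measurements and not with repeat cultures.

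Whether tumours grown in middle-aged mice differed from those in young mice was asked first in unirradiated animals. None of the 28 members passed the test (limma, Benjamini-Hochberg adjusted p under 0.05), and none of all 10907 genes did (0%), although 1501 genes (13.8%) and 3 members had an unadjusted p under 0.05. P-values here measure the spread between these tumours. Idi1 was lower by a log2 difference of -0.55 (SE 0.212, adjusted p = 0.273). Insig2 differed by 0.34 (SE 0.131, adjusted p = 0.273) and Nsdhl, a sterol decarboxylase, by 0.49 (SE 0.232, adjusted p = 0.347). For Nsdhl the 10 young tumours lay between 6.25 and 8.06 and the 7 middle-aged ones between 7.20 and 8.14, and for Insig2 the ranges were 9.21 to 10.18 and 9.52 to 10.46, so the groups overlapped for both. Insig2 passed with array quality weights (0.37, adjusted p = 0.0488), a setting under which many other genes of the array passed too, as counted below. Another detected probe of Insig2 gave 0.08, and those of Nsdhl gave 0.32, 0.17 and 0.0072.

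Without a gene passing, the 28 members lay slightly above 0 in middle-aged unirradiated tumours, 22 of 28, with a median of 0.13, where 5494 of 10907 genes did, with a median of 0.00. The median was 0.18 for 12 sterol genes and 0.09 for 11 fatty acid genes. Sqle differed by 0.24 (SE 0.164) and Cyp51 by 0.28 (SE 0.218), Srebf1 by 0.40 (SE 0.248) and Scd1 by -0.17 (SE 0.163), none passing. For Srebf2 the brightest probe gave 0.32 and another detected probe -0.38, and for Insig1 the brightest gave 0.26 and the others 0.20 and -0.65, so the direction of neither regulator is settled. In the list of other sterol pathway genes 0 of 11 tested passed, in that of other fatty acid genes 0 of 14 and among genes of cholesterol efflux under LXR control 0 of 5. The other lists lay on both sides of 0 in the same comparison. Below 0 were 15 of 15 skeletal muscle markers (median -1.39), 13 of 14 endothelial markers (median -0.39) and 10 of 12 cell cycle genes (median -0.21). So were 5 of 5 adipocyte markers (median -0.22) and 8 of 10 hypoxia response genes (median -0.29). Above 0 were 12 of 16 macrophage markers (median 0.20), 7 of 12 fibroblast markers (median 0.02) and 5 of 5 LXR and efflux genes (median 0.35). None of these genes passed. The mean of the skeletal muscle markers ran from 5.37 to 11.53 in young and from 5.39 to 7.27 in middle-aged unirradiated tumours, that of the endothelial markers from 7.66 to 8.80 and from 7.44 to 8.16. Their part in the members' values was not tested.

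In irradiated mice the same age comparison gave 0 of 28 members against 1 of 10907 genes (0.00917%), with 1 member and 797 genes (7.31%) at an unadjusted p under 0.05. The member was Elovl6, which lengthens palmitate, with a difference of -0.34 (SE 0.164, adjusted p = 0.683). Fdps, the synthase of farnesyl diphosphate, differed by -0.35 (SE 0.182, adjusted p = 0.702). Here 20 of 28 members lay below 0, with a median of -0.05, as did 5036 of 10907 genes, with a median of 0.02.

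Irradiation of young mice moved 0 of 28 members and 0 of 10907 genes (0%) past the threshold in limma, with 2 members and 604 genes (5.54%) at an unadjusted p under 0.05. Elovl6 ran from 8.99 through 9.72 to 10.48 in the young unirradiated tumours and from 9.82 through 10.09 to 10.38 in the irradiated ones, which lay inside the upper part of the unirradiated range. The difference was 0.34 (SE 0.136, adjusted p = 0.885). Fdps ran from 10.96 through 11.69 to 12.19 and from 11.60 through 11.99 to 12.43, with a difference of 0.32 (SE 0.151, adjusted p = 0.887). Sqle differed by 0.08 (SE 0.158), Scd1 by 0.17 (SE 0.157) and Cyp51 by 0.00 (SE 0.21), none passing. In the other direction were Dhcr7 (-0.34, SE 0.251), Idi1 (-0.26, SE 0.204) and Tm7sf2 (-0.18, SE 0.141), each with an adjusted p of 0.907. Of the 28 members 22 lay above 0, with a median of 0.08, where 5075 of 10907 genes did, with a median of -0.01. Below 0 were 14 of 15 skeletal muscle (median -0.57), 10 of 12 fibroblast and 11 of 14 endothelial markers. Above 0 were 11 of 16 macrophage markers and 8 of 12 cell cycle genes. None of these passed, and their part in the members' values was not tested.

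Irradiation of middle-aged mice moved 0 of 28 members and 0 of 10907 genes (0%) past it, with 0 members and 690 genes (6.33%) at an unadjusted p under 0.05. Srebf2 differed by -0.44 (SE 0.252, adjusted p = 0.833) and Insig2 by -0.31 (SE 0.155, adjusted p = 0.789). Another detected probe of each gave 0.23 for Srebf2 and -0.06 for Insig2, so the direction of Srebf2 is not settled. Sqle differed by -0.26 (SE 0.195) and Scd1 by 0.12 (SE 0.194). Of the 28 members 20 lay below 0, with a median of -0.13, of -0.19 in the sterol branch and of -0.03 in the fatty acid branch, where 5378 of 10907 genes lay below 0 and their median was 0.00. In this comparison 15 of 15 skeletal muscle markers lay above 0 (median 1.20), as did 9 of 10 hypoxia response genes (median 0.19). The muscle mean was 5.36 to 9.86 in irradiated and 5.39 to 7.27 in unirradiated tumours. Also above 0 were 10 of 14 endothelial, 7 of 16 macrophage, 6 of 12 fibroblast and 5 of 12 cell cycle genes. None of these genes passed. Their part in the members' values was not tested.

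The test of the difference between the irradiation effects at both ages called 0 of 28 members and 0 of 10907 genes (0%), with 2 members and 482 genes (4.42%) at an unadjusted p under 0.05. Those members were Elovl6 (-0.52, SE 0.217) and Fdps (-0.52, SE 0.240), each with an adjusted p of 0.981. Middle-aged irradiated against young unirradiated tumours gave 0 of 28 members and 2 of 10907 genes (0.0183%). At an unadjusted p under 0.05 were 647 genes (5.93%) and 1 member, Idi1 (-0.61, SE 0.236, adjusted p = 0.719). These comparisons share groups, so their values are not independent of each other.

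**Figure D2:**
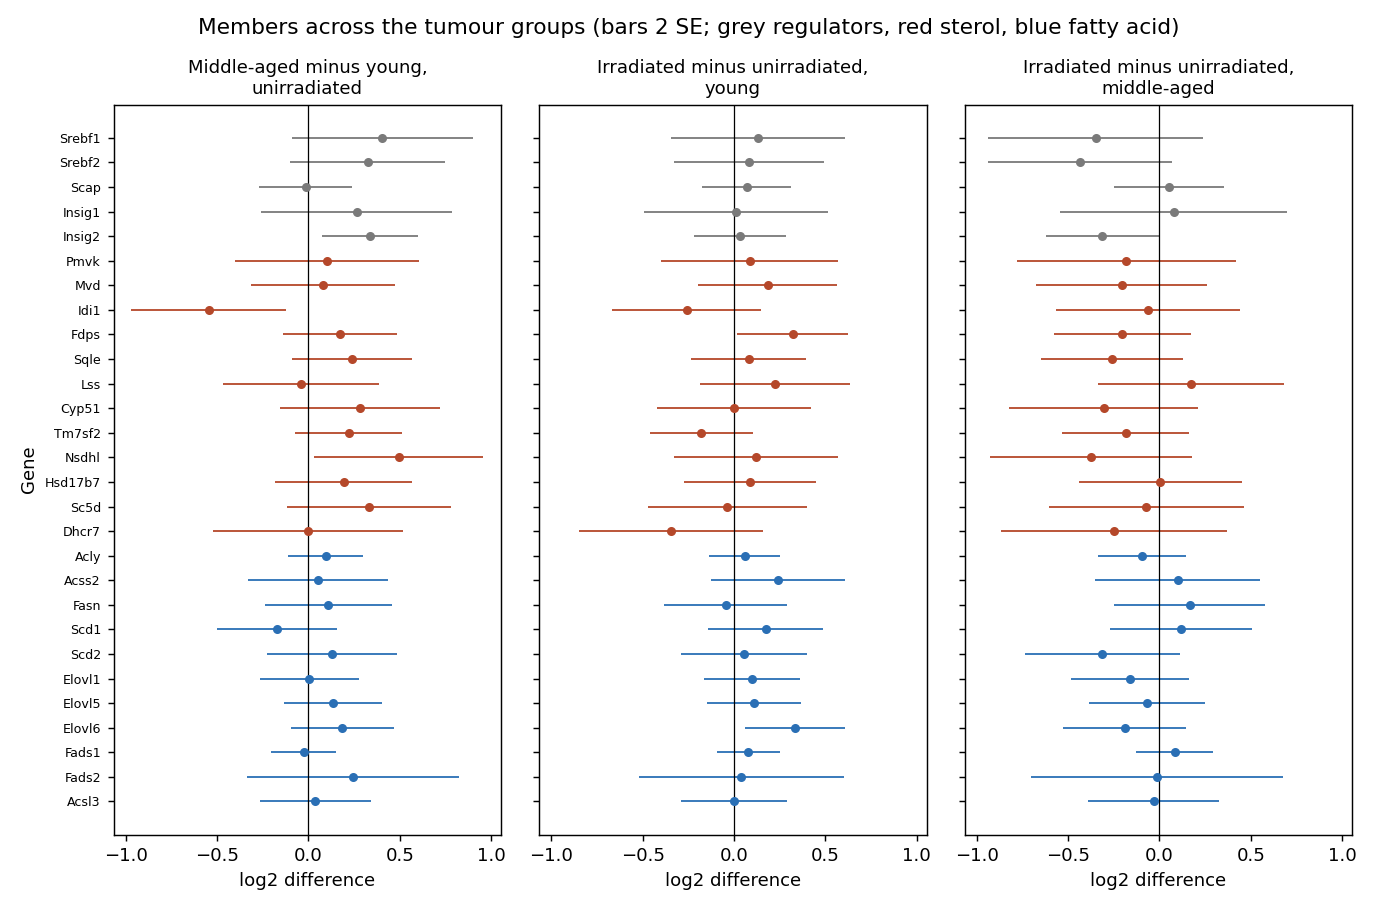
Log2 differences of the 28 tested members with bars of 2 SE, for middle-aged minus young unirradiated tumours (left) and irradiated minus unirradiated tumours of young (middle) and middle-aged mice (right). Most bars cross 0, and Idi1, Insig2 and Nsdhl on the left, Elovl6 and Fdps in the middle and Insig2 on the right are the exceptions, none of which passed after adjustment.

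Against the line as cells, the mean level of each branch overlapped between tumours and cells. Of 28 tested members 1 passed, Fads2, which was lower in tumours, while 2211 of 11105 genes (19.9%) passed over the whole array, 1274 higher (11.5%) and 937 lower (8.44%). At an unadjusted p under 0.05 were 2 members and 3552 genes (32%). The median difference was -0.15 over members, 18 of 28 being below 0, and -0.07 over all genes, 6041 of 11105 being below 0. Because the cells count as 1 sample that is assumed to vary like tumours, the comparison recovered 38 of 100 simulated differences of 1 on the log2 scale and 92 of 100 of 2. The simulation shifted only these genes among 11105, far fewer than the 2211 that passed in the data. Its cut on p was therefore stricter, and these shares do not carry over to the data directly.

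Fads2 is the desaturase that starts the conversion of linoleate and linolenate to longer polyunsaturated fatty acids. It ran from 5.32 through 6.40 to 7.06 in young unirradiated, from 5.27 through 6.40 to 7.01 in young irradiated and from 5.82 through 6.64 to 7.34 in middle-aged unirradiated tumours. It read 6.17, 6.64, 6.08, 6.58 and 6.97 in middle-aged irradiated tumours and 7.66, 7.69, 8.22, 7.96, 8.16 and 8.16 on the cell arrays. All 30 tumours lay below all 6 cell arrays, as 8.94% of all genes did, and the probe was detected on 26 tumours and 6 cell arrays. The difference was -1.61 (SE 0.581, adjusted p = 0.0473), or 3.05-fold.

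The call was marginal: it was lost in 14 of 36 fits that each left out 1 array and in 6 of 12 other settings, with adjusted p from 0.00974 to 0.206, while the difference stayed negative, from -1.73 to -0.70. The other detected Fads2 probe gave -0.84 (adjusted p = 0.345). Macrophage markers were higher in tumours for 14 of 16 tested genes, with mean levels of 9.62 to 11.00 over tumours and 5.13 to 5.33 over cells, and fibroblast markers for 7 of 12, with mean levels of 9.25 to 10.97 and 6.64 to 6.90. Cell cycle genes were lower for 8 of 12. The part of these cells in the Fads2 difference was not tested.

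The members around Fads2 differed from it in how they compared with cells. Fads1, the desaturase that follows it, differed by -0.01 (SE 0.182), with tumours from 12.11 to 12.73 and cells from 12.34 to 12.64. Elovl5, which elongates between both desaturases, differed by -0.13 (SE 0.269). Scd1 differed by -0.04 (SE 0.344), with tumours from 10.18 to 11.72 and cells from 11.01 to 11.29, so the cells lay inside the tumour range. Acsl3, which activates fatty acids, differed by -0.57 (SE 0.298, adjusted p = 0.186) with 27 of 30 tumours below all cell arrays, and another, dimmer probe of it gave -1.12 (adjusted p = 0.0401 with every detected probe tested). Elovl6 differed by -0.54 (SE 0.312), with 16 of 30 tumours below all cell arrays. Elovl1, an elongase of saturated chains, gave 0.38, 0.20, -0.46 and -0.71 with its 4 detected probes, and no direction was settled.

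In the sterol branch, 2 late enzymes read higher in tumours without passing. Hsd17b7, a reductase of sterol ketones, ran from 9.72 through 10.61 to 11.34 over the 30 tumours and read 9.75, 10.08, 9.61, 9.56, 9.58 and 9.69 on the cell arrays. Of the tumours 28 lay above all cell arrays, and the difference was 0.95 (SE 0.378, adjusted p = 0.0749), or 1.93-fold. It passed with array quality weights (adjusted p = 0.0425) and with the cells of control batch 2 alone (adjusted p = 0.0466). Sc5d, a sterol desaturase, differed by 0.92 (SE 0.468, adjusted p = 0.172), with 22 tumours above all cell arrays. It passed under median scaling of the arrays (1.37, adjusted p = 0.0114), which also moved the median of all genes from -0.07 to 0.25. Mvd differed by 0.66 (SE 0.399) and Fdps by 0.50 (SE 0.339), with 27 and 25 tumours above all cell arrays.

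Sqle differed by 0.02 (SE 0.337), with tumours on both sides of the cells, which read 11.68, 11.68, 11.90, 11.57, 11.66 and 11.79. Cyp51 differed by -0.25 (SE 0.445) and Dhcr7 by -0.60 (SE 0.535). Among the regulators Insig1 differed by -0.72 (SE 0.533), with 21 tumours below all cell arrays, and Srebf1 by -0.58 (SE 0.510), with 17, none passing. Scap gave -0.49 with its brightest probe and 0.91 with the other, both detected on every tumour, so its direction is not settled.

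Of 11 tested other sterol pathway genes 3 were higher and 2 lower in tumours than in cells, and Npc1, which exports cholesterol from lysosomes, was higher by 1.10 (SE 0.252, adjusted p = 0.00171). Ch25h, which makes an oxysterol and is abundant in macrophages, was detected on 30 tumours and 0 cell arrays and was at least 16.05-fold higher in tumours (adjusted p = 1.57e-11), the bound resting on the lowest signals detected on each cell array. It was the 1 gene of 5 that passed in the LXR and efflux list. None of 14 other fatty acid genes passed, Hsd17b12 coming nearest (-0.74, SE 0.278, adjusted p = 0.0558).

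**Figure D3:**
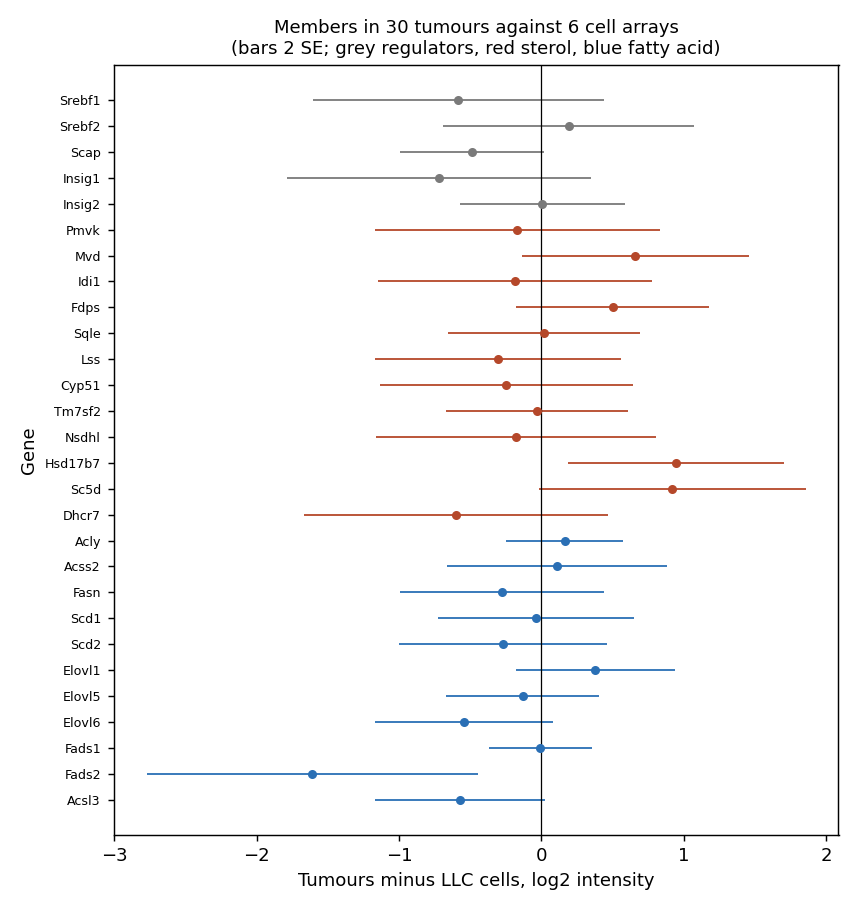
Log2 intensity in 30 tumours minus that in the averaged LLC cells for each of the 28 tested members, with bars of 2 SE. The Fads2 bar lies wholly below 0 at -1.61 and the Hsd17b7 bar wholly above 0 at 0.95, and the other bars reach 0.

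The clearest pattern of these genes lay between single tumours of a group. After removal of each group's mean, Sqle and Cyp51 rose and fell together over the 30 tumours, with Pearson r of 0.90 and Spearman rho of 0.90 (permutation p = 1e-05 for each, the smallest that the resampling can give, adjusted p = 0.0001 over 10 pairs). Without the 2 tumours farthest from the median of Sqle r was 0.91. Within groups r was 0.93 in 10 young unirradiated, 0.81 in 8 young irradiated and 0.97 in 7 middle-aged unirradiated tumours, and the 5 middle-aged irradiated tumours were too few for a value. Sqle stands here in place of the unlisted Hmgcs1, a choice made after the probes were seen.

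Young unirradiated replicate 5 and middle-aged unirradiated replicates 1, 5 and 7 were highest in Sqle, at 12.24, 12.29, 12.22 and 12.29, and read 10.19, 10.45, 10.14 and 10.18 for Cyp51. Young unirradiated replicates 7 and 2 and young irradiated replicate 6 were lowest in Sqle, at 11.12, 11.29 and 11.28, and read 9.23, 8.96 and 8.49 for Cyp51. Young unirradiated tumours were thus among both the highest and the lowest. The middle-aged unirradiated tumours named were all high, but that group ran from 11.30 to 12.29 in Sqle. A further Sqle probe, detected on all 30 tumours, had r of 0.87 with the brightest probe and of 0.87 with Cyp51.

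Sqle also moved with genes at other points of the pathway. With Insig1 r was 0.64 (rho 0.64, adjusted permutation p = 0.0004), with Srebf2 0.60 (rho 0.55, adjusted permutation p = 0.0013) and with Idi1 0.59 (rho 0.62, adjusted permutation p = 0.0013). With Acly it was 0.55 (rho 0.51, adjusted permutation p = 0.00254) and with Scd1 0.54 (rho 0.44, adjusted permutation p = 0.00278). Without the 2 farthest tumours these 5 values were 0.60, 0.52, 0.53, 0.58 and 0.53. They were less even between groups than that of Cyp51: with Idi1 r was 0.75 in young unirradiated and 0.85 in middle-aged unirradiated but -0.16 in young irradiated tumours, and with Acly 0.63, 0.72 and -0.01. Another detected Srebf2 probe had r of -0.01 with Sqle and of -0.50 with the brightest Srebf2 probe, so that relation rests on 1 probe.

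Fasn, which few tumours expressed above background, followed Sqle less, with r of 0.35 (rho 0.31, adjusted permutation p = 0.0707). It had r of 0.03 with Scd1 (adjusted permutation p = 0.864), of 0.13 with Srebf1 (adjusted permutation p = 0.544) and of 0.47 with Elovl6 (rho 0.39, adjusted permutation p = 0.0143). The last fell to 0.23 without the 2 farthest tumours, so it rests on those.

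**Figure D4:**
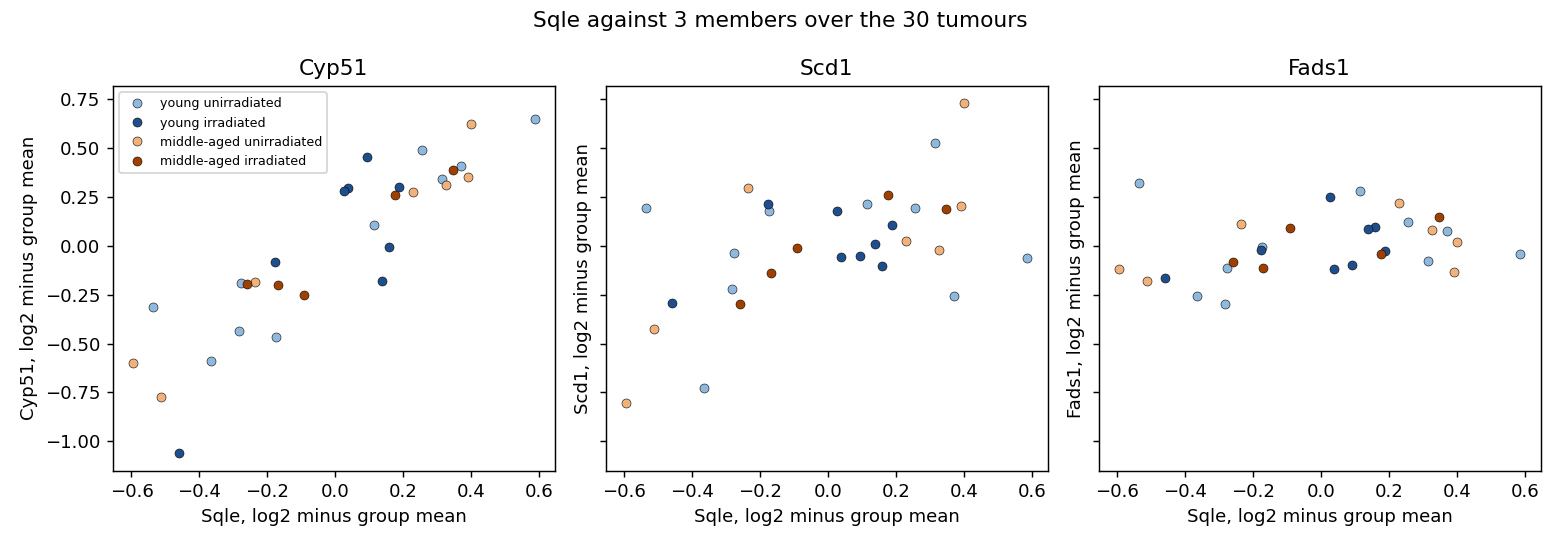
Log2 intensity minus the group mean for Sqle (horizontal) and for Cyp51, Scd1 and Fads1 (vertical) in the 30 tumours, coloured by group. Cyp51 rises along Sqle in each colour (r of 0.90), Scd1 more loosely (0.54), and Fads1 stays within a narrow band (0.29).

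Set against every gene, Cyp51, Acsl3 and Fdps were the 3 genes most like Sqle of 10906, by Pearson r over the 30 tumours with group means removed (0.90, 0.84 and 0.80). Of the other 27 tested members 20 had r over 0.5, where 331 of 10906 genes (3.04%) did. They were 10 of 11 in the sterol branch, Lss at 0.25 being the exception, 7 of 11 in the fatty acid branch and 3 of 5 regulators. These correlations are a description over tumours that share an array platform and its normalisation. Leaving out both dim arrays gave 19 of 27 members and 2.20% of genes. Median scaling gave 11 of 27 members and 0.770% of genes, and the authors' normalised values 16 of 27 and 1.07%.

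Within the sterol branch r ran from 0.90 for Cyp51 and 0.80 for Fdps over 0.71 for Nsdhl and 0.67 for Dhcr7 to 0.53 for Mvd. In the fatty acid branch Acsl3 (0.84), Scd2 (0.71), Elovl5 (0.64), Elovl6 (0.60), Fads2 (0.55), Acly and Scd1 were over 0.5, while Fasn (0.35), Fads1 (0.29) and Acss2 (0.08), which makes acetyl-CoA from acetate, were not. Elovl1 ran the other way (-0.50), as did Scap (-0.31). Among genes outside the members, named after their values were seen, Plod2, a collagen lysyl hydroxylase, had 0.79, Msmo1, a sterol oxidase of the same pathway, 0.79 and Idh1, an NADPH-producing dehydrogenase, 0.72.

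Other probes of the members bore on how far single genes can be trusted. The dimmer Fdps probe had r of 0.72 with the brightest and of 0.69 with Sqle. The further detected Nsdhl probes had r of 0.78, 0.28 and 0.10 with the brightest and of 0.58, 0.21 and 0.27 with Sqle. Dimmer detected probes of Insig2 and Fads2 had r of 0.58 and 0.72 with the brightest and of 0.39 and 0.46 with Sqle. That of Lss had r of -0.35 with its brightest probe and of 0.38 with Sqle. Of the dimmer probes of Acsl3, the 1 detected had r of -0.01 with the brightest and of 0.02 with Sqle, so the place of Acsl3 near Sqle rests on 1 probe. Among Insig1 probes 1 followed Sqle (0.57) and another did not (0.05). For Elovl1, a probe with r of 0.83 to the brightest gave -0.47 with Sqle and another gave 0.34.

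**Figure D5:**
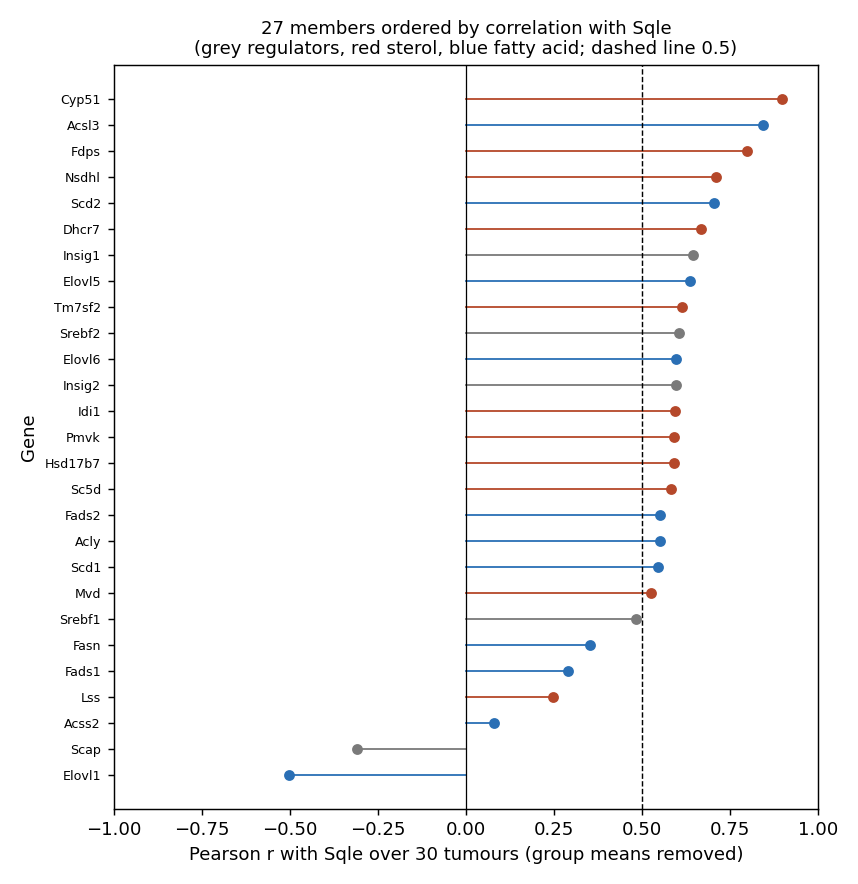
Pearson r of the 27 other tested members with Sqle over 30 tumours with group means removed, ordered by size and coloured by branch, with a dashed line at 0.5. Cyp51 leads at 0.90, 20 genes lie over the line, and Elovl1 is lowest at -0.50.

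Few genes of the other lists moved with Sqle. Over 0.5 were 1 of 11 other sterol pathway genes, 1 of 14 other fatty acid genes, 1 of 10 hypoxia response genes and 0 of 5 LXR and efflux, 5 adipocyte, 15 skeletal muscle, 16 macrophage, 14 endothelial, 12 fibroblast and 12 cell cycle genes. Without both dim arrays 4 of 10 hypoxia response genes were over 0.5. Of 8 relations of Sqle with array measures and marker means, that with fibroblast markers was negative, with r of -0.51 (permutation p = 0.00344, adjusted p = 0.0275) and rho of -0.46 (adjusted permutation p = 0.084), and r was -0.47 without the 2 farthest tumours. None of the other 7 passed, hypoxia genes giving r of 0.23 (adjusted permutation p = 0.393), macrophage markers -0.12 (adjusted permutation p = 0.723) and array brightness 0.36 (adjusted permutation p = 0.199). With the fibroblast mean removed, r of Sqle with Cyp51 was 0.86, and 14 of 27 members against 3.22% of genes were over 0.5. With brightness removed r was 0.89, and 19 of 27 against 1.32% were.

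The branches as wholes were compared by the mean level of their tested members in each sample, as a description with no test. The sterol mean was 8.55 ± 0.29 (SD, n = 30) over tumours, from 7.92 to 9.03, and 8.44 ± 0.07 over the 6 cell arrays, so the cells lay inside the tumour range. The fatty acid mean was 9.82 ± 0.17 over tumours, from 9.41 to 10.08, and 10.07 ± 0.07 over cells, from 9.96 to 10.17. Sterol minus fatty acid, whose absolute size depends on the probes, was -1.26 ± 0.18 over tumours and -1.63 ± 0.07 over cells, with ranges of -1.65 to -0.95 and -1.69 to -1.52 that overlapped. Of the 30 tumours 28 lay above all 6 cell arrays, and the others were young irradiated replicate 6, the dimmest array, at -1.65 and young unirradiated replicate 7 at -1.54. By group it was -1.24 ± 0.20 in 10 young unirradiated and -1.32 ± 0.20 in 8 young irradiated tumours. It was -1.19 ± 0.15 in 7 middle-aged unirradiated and -1.31 ± 0.11 in 5 middle-aged irradiated tumours. The median difference of tumours from cells was close in both branches. For sterol genes it was -0.10, with 7 of 12 below 0, and for fatty acid genes -0.13, with 8 of 11. Single members such as Fads2 (-1.61), Hsd17b7 (0.95) and Sc5d (0.92) thus weigh on the branch means.

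Because most sterol genes moved together, their promoters are shown from RefSeq (build GRCm38.p6), from 250 bases before to 50 after the annotated start. SREBPs are weak activators that work with NF-Y, which binds CCAAT boxes, and with Sp1. Below are the promoters of Cyp51 at chr5:4104648-4104947 (minus strand), Nsdhl at chrX:72918271-72918570 (plus strand), Idi1 at chr13:8885356-8885655 (plus strand) and Mvd at chr8:122443373-122443672 (minus strand), all of which had r over 0.5 with Sqle, and that of Fads2 at chr19:10101454-10101753 (minus strand), the 1 member that passed against cells. Fads2 also had r over 0.5 with Sqle (0.55). The sequences read 5′ to 3′ along the gene, and capitals mark CCAAT or its complement ATTGG.
Cyp51: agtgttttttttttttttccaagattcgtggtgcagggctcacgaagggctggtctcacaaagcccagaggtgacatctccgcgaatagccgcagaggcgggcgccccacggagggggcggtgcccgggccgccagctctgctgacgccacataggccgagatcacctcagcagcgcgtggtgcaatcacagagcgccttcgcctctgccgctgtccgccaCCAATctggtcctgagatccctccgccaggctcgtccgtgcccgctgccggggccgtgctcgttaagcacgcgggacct
Nsdhl: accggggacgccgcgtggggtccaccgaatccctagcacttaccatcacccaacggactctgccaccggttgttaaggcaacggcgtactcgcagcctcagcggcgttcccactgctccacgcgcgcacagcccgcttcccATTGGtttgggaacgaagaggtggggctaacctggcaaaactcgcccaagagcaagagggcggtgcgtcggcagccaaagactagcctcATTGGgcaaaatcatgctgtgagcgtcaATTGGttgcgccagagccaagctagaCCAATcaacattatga
Idi1: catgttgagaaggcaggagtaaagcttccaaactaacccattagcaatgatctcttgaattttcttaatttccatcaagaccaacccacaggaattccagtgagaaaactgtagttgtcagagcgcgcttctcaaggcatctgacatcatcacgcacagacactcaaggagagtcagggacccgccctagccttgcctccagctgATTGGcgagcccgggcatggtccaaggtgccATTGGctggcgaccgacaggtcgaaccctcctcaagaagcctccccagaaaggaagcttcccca
Mvd: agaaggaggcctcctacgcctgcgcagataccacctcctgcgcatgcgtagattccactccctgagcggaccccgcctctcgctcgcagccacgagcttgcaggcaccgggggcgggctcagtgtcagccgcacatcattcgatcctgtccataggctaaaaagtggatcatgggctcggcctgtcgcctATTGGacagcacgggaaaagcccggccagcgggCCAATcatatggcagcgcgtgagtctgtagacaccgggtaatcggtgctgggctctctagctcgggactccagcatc
Fads2: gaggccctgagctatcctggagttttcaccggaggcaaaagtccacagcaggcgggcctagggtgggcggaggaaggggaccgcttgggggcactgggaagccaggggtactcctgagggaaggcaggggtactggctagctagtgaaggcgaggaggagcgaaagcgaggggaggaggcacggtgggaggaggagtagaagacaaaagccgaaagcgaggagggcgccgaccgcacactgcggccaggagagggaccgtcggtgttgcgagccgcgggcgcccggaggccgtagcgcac

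The CCAAT box lay 29 bases before the start in Cyp51, at 45 and 14 before it in Idi1 and at 60 and 27 before it in Mvd, while Nsdhl had 4 such boxes and the Fads2 window 0. Promoters were listed for 26 of the 32 members, and a gene counted where any of its promoters held the letters on either strand. CCAAT was found in 22 of 26 members (84.6%), in 12 of 12 sterol genes, 6 of 9 fatty acid genes and 4 of 5 regulators. It was found in 43.1% of 8815 tested genes with a promoter and in 41.1% of all 27025. GGGCGG, an Sp1 box, was found in 21 of 26 members (80.8%) and in 67.4% of tested genes. CACGTG, an E-box that SREBPs can also bind, was found in 6 of 26 members (23.1%) and in 11.6% of tested genes. TCACNCCAC, a form of the sterol regulatory element, was found in 1 of 26 members, Hmgcs1, and in 1.32% of tested genes. A match is a stretch of letters in this window, and nothing on binding was measured.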

How the data were processed

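RNA of 30 tumours and 6 cell arrays was measured on Illumina Mouse WG-6 bead arrays. The deposited table holds, per the file headers, an average signal intensity per probe and array, not normalized, and a detection p-value per probe and array that the authors obtained with GenomeStudio. That name comes from the submitters' processing notes, without a version. The authors also deposited normalized intensity values, called rank variant normalized in the series text. The 36 columns of these values each ranked best with their own array, with medians of 134 to 183, and their 1685 values under 16 were set to 16 before log2. It served as an alternative.

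Signals were background-corrected and quantile-normalized with limma 3.58.1 (neqc, offset 16) in R 4.3.3. Of 45281 probes, 34885 had 1 gene symbol in the platform annotation, 18 several and 10378 none listed. Of the symbols 34807 were matched to RefSeq genes by their identifiers and 0 changed. Each gene was represented by its brightest probe over tumours, if detected (p-value under 0.05) on at least 5 arrays. Linear models with eBayes were fitted over all genes, 10907 for 4 tumour groups and 11105 for tumours against cells, with Benjamini-Hochberg adjustment at 0.05. In the second the 6 technical arrays were averaged to 1 sample. Correlations over tumours used values minus group means, with 100000 permutations (two-sided, Python 3.11.15, scipy 1.17.1). In simulated data with independent genes, 100 were shifted by 1 and 100 by 2 on the log2 scale. Of those shifted by 1, 86 were recovered for age in unirradiated mice. For irradiation 89 were recovered in young and 73 in middle-aged mice. Differences smaller than 1 were not simulated.

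All members are accounted for. Described by comparison are members that passed, those with an unadjusted p under 0.05 and some of the up to 3 in each direction with the smallest p. Scd1, Fasn, Sqle, Idi1, Insig1, Srebf1 and Srebf2 were described whatever their p. From other lists up to 2 genes with the smallest p were considered. Members, lists and rules were chosen with earlier results of these data known. Planned pairs with Hmgcs1, Acaca and Plin1 could not be computed, since these were unlisted or not detected, and 7 pairs of Sqle were added after seeing the data. Number of arrays limits the precision. Alternatives covered the authors' values, background correction, scaling, the filter on dim probes, probe choice, dim arrays, array weights, the replicate number as a block, single arrays left out and the control batch. Same-numbered tumours of different groups deviated together little (median correlation 0.05 over 37 pairs, 14 above 0.1, against 0.0016 for other pairs). The numbers were therefore not taken as pairs, although this description cannot exclude a pairing.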

Additional observations from a re-analysis of the deposited data

Results flagged for a closer look

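Of 120 groups of member values checked, 6 held a tumour far from the others of its group, where chance gives about 1 in 20 groups. In 3 of these the tumour was young irradiated replicate 6, the dimmest array: Pmvk read 5.67 there against 7.55 in the next tumour, Cyp51 read 8.49 against 9.37 and Dhcr7 read 5.21 against 6.94. Srebf2 read 9.12 in middle-aged irradiated replicate 1, with the next tumour at 9.73. Insig2 read 9.52 in middle-aged unirradiated replicate 6, with the next at 10.05. Acsl3 read 8.75 in middle-aged irradiated replicate 3, with the next at 9.34.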

How the results depend on the processing

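No member passed in any of the 6 tumour comparisons under any alternative, except 1, Insig2, in the age comparison of unirradiated mice with array quality weights. There 413 of 10907 genes passed. Counts over all genes were small and unstable. For age in unirradiated mice (0 genes) they were 1 with the authors' values, 3 with every detected probe, 29 without the dim arrays and 413 with array quality weights, and 0 to 123 leaving out single arrays, the highest without young unirradiated replicate 5. For age in irradiated mice (1 gene) they were 3 with the authors' values, 2 without background correction, 0 under median scaling, 2 without a detection filter, 0 with detection on 15 arrays, 0 with every detected probe, 0 without the dim arrays, 6 with weights, 0 with the replicate block and 0 to 3 leaving out single arrays. For middle-aged irradiated against young unirradiated tumours (2 genes) they were 1 with the authors' values, without background correction, under median scaling and with detection on 15 arrays, 6 with the mean over probes, 8 without the dim arrays, 32 with weights, 0 with the replicate block and 0 to 7 leaving out single arrays. Irradiation in middle-aged mice gave 227 genes with weights and 0 to 0 leaving out single arrays, irradiation in young mice 0 to 1 and the difference between the irradiation effects 0 to 0. The replicate block changed no other call.

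Against cells, 3381 of 18147 probes passed with every detected probe against 2211 of 11105 genes, and 2137 to 2544 genes leaving out single arrays. For the other settings named next, counts over all genes are not given, so their member counts are no result about the members as a set. Members passing were 0 without a filter, with control batch 1 alone, with young unirradiated tumours alone and with equal weight for the tumour groups, 2 with every detected probe (Fads2 and Acsl3), with weights and with control batch 2 alone (Fads2 and Hsd17b7), and 0 to 2 leaving out single arrays, the highest without young unirradiated replicate 2. Under median scaling Sc5d passed and with the mean over probes Acsl3, in place of Fads2 (-1.05, adjusted p = 0.206, and -1.23, adjusted p = 0.103). Members with r over 0.5 with Sqle fell from 20 to 11 under median scaling, where 0.770% of genes passed it, and were 16 (1.07% of genes) with the authors' values. Sterol minus fatty acid over tumours was -1.06 with the authors' values and -1.06 without background correction.

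Directions that turned were of uncalled members. Under median scaling these were Fasn (-0.56) and Tm7sf2 (-0.59) for age in irradiated mice, Dhcr7 (0.078), Tm7sf2 (0.35) and Idi1 (0.11) for irradiation in young mice, Fasn (-0.45), Idi1 (-0.29) and Dhcr7 (-0.38) for the difference between the irradiation effects and Fasn (-0.065) for middle-aged irradiated against young unirradiated tumours. With the mean over probes they were Lss (-0.10) for irradiation in middle-aged mice and Scap (0.21) against cells. For the difference between the irradiation effects, Fasn (-0.022) and Dhcr7 (-0.13) turned without the dim arrays and Dhcr7 (-0.21) with weights. Leaving out 1 array gave values on both sides of 0 for Lss under irradiation in middle-aged mice (-0.00027 to 0.29), Fads1 for age in unirradiated mice (-0.061 to 0.011) and Dhcr7 for the difference (-0.16 to 0.23). The correlation of Fasn with Scd1 turned without the dim arrays (-0.0079), uncentred (-0.044), under median scaling (-0.14) and with brightness removed (-0.10), that of Fasn with Srebf1 with the authors' values (-0.12) and that of Sqle with Fasn under median scaling (-0.27). The causes were not tested.

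Fasn, Idi1 and Tm7sf2 lay near background on many arrays, which limits what can be said of them. Chip and RNA extraction of the tumours are not given by the labels, and the cells are technical arrays of 1 source. The alternatives on correlations, branch means and counts of members were partly chosen after seeing the data.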
